A study of Mus musculus with 17 samples.

Results

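The neurotrophin genes examined here are 5 in number, out of 55450 genes in the count lists of the series. They encode the ligands brain-derived neurotrophic factor (Bdnf) and neurotrophin-3 (Ntf3), the receptor tyrosine kinases TrkB (Ntrk2) and TrkC (Ntrk3), and the p75 neurotrophin receptor (Ngfr). The genes were taken by symbol as a fixed list, chosen with earlier results of these data known, and all 5 were among the 17615 genes expressed highly enough to be tested. RNA-seq was performed on hippocampi of adult mice, C57BL/6J of either sex per the methods, in 17 libraries. There were 6 libraries of epileptic sgLacZ and 6 of epileptic sgKcna1 mice, which the study calls epileptic Ctrl-dCas9A and epileptic Kcna1-dCas9A. Both groups were made epileptic with kainic acid, which excites glutamate receptors, given in the right amygdala, a model of temporal lobe epilepsy that starts with status epilepticus. The 5 control sgLacZ libraries came from sham-treated mice given the same vectors as epileptic sgLacZ mice. Per the methods every group carried AAV9 vectors in the right ventral hippocampus, with a catalytically dead Cas9 joined to a transcriptional activator, and was fed doxycycline, so no group was free of virus, activator or drug. The guide sgKcna1 binds the promoter of the potassium channel gene Kcna1 and sgLacZ a bacterial gene. The activator was switched on through a Camk2a promoter, which is active in excitatory neurons, whereas RNA came from whole tissue, in which fewer cells of a type and less RNA per cell cannot be told apart. The sources used here do not say whether the tissue sequenced was the injected side alone. 

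Neurotrophins are secreted proteins made as precursors and cut to their mature form inside or outside the cell. Mature BDNF activates TrkB and NT-3 activates TrkC, whereas the uncut precursors bind p75 together with sortilin family receptors. In the hippocampus Bdnf is made by excitatory neurons and is raised by neuronal activity, and TrkB is carried by neurons and, in a form without the kinase, by astrocytes. Ntf3 in the adult hippocampus is known mainly from dentate granule cells. Ngfr is scarce in adult hippocampal neurons and is a marker of the cholinergic neurons of the septum that project to the hippocampus.

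Transcription of Bdnf starts at several alternative first exons. A table of RefSeq promoter windows in GRCm38.p6 (250 bases before to 50 after the start) held 7 windows for Bdnf, 2 for Ntf3, 1 for Ntrk2 and 1 for Ngfr. A single Bdnf window is shown because it carries the elements through which calcium and neuronal activity are known to act on this gene. It lies on the plus strand at chr2:109692186-109692485, and capitals mark the matches.

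Bdnf activity-responsive window: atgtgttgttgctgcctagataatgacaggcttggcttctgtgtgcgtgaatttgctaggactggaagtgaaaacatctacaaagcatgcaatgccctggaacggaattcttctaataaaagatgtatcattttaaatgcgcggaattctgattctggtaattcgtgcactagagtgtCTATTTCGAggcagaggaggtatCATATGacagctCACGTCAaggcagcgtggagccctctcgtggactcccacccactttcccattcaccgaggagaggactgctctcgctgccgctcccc

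In that window CTATTTCGA, from a calcium-response element, began 72 bases before the start, CATATG, an E-box, 49 bases before it, and CACGTCA, a variant of the cyclic AMP response element, 37 bases before it. The motifs do not overlap one another, and both strands were searched. CTATTTCGA was found in 5 of 32851 windows (0.0152%), CATATG in 3.91%, CACGTCA in 2.01% and the full element TGACGTCA in 1.79%. A further Bdnf window held CATATG, and no window of Ntf3, Ntrk2 or Ngfr held any of the 4 motifs. These are matches of letters, not sites shown to be bound. The deposited counts merge all starts of Bdnf and, for Ntrk2 and Ntrk3, the full-length and truncated receptor isoforms, so neither can be separated here.

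Reads falling in genes numbered 11839240 to 28311328 per library. Levels are given as CPM, counts divided by library size in megareads after TMM scaling, which sets most genes equal between libraries. A floor of 3 reads came to 0.106 to 0.253 CPM. Markers of dentate granule cells and CA pyramidal cells were present in every library. A pair of libraries stood apart. Epileptic sgKcna1 replicate 12 was the shallowest, with 41.5% of reads unmapped, and epileptic sgLacZ replicate 4 was the deepest, with 11.0% unmapped. The targeted gene, Kcna1, ranged from 13.8 to 119.9 CPM (scaled by reads in genes) in epileptic sgKcna1, from 17.5 to 58.9 in epileptic sgLacZ and from 25.8 to 42.6 in control libraries, and its highest value was that of replicate 12. The other epileptic sgKcna1 libraries had 13.8, 15.0, 19.4, 19.8 and 29.4 CPM of Kcna1, within or below the range of controls. In 5 libraries (control replicates 16 and 23 and epileptic sgKcna1 replicates 1, 11 and 12) reads of the female-specific Xist and of Y-linked genes occurred together, the smaller making up 5.68% to 22.5% of their sum, so they hold reads specific to both sexes. The cut was a smaller share over 5%, set after seeing the data, and epileptic sgLacZ replicate 8 lay just under it at 4.10%. By Xist against Y-linked reads 2 of 5 control, 4 of 6 epileptic sgLacZ and 2 of 6 epileptic sgKcna1 libraries were female. Leaving out these 5 libraries is given as a further setting. It keeps control replicates 13, 14 and 15 and epileptic sgKcna1 replicates 2, 3 and 10, all male, beside all 6 epileptic sgLacZ libraries. Sex is thus unbalanced between the groups in that setting.

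Bdnf (ENSMUSG00000048482.14, chromosome 2, 109674700 to 109727043 in GRCm38.p6) was lower in epileptic sgLacZ than in control libraries, without passing the threshold. Control libraries had 64.7, 69.7, 71.0, 87.2 and 87.9 CPM of Bdnf. Epileptic sgLacZ libraries had 37.3, 50.0, 53.6, 55.0, 60.3 and 62.7 CPM. All 6 lay below every control library, which held for 2.40% of all genes tested in that direction. The means were 53.1 ± 9.04 (SD, n = 6) and 76.1 ± 10.7 CPM (SD, n = 5), giving a log2 fold change of -0.52 (SE 0.25; edgeR quasi-likelihood test across all genes, unadjusted p = 0.0489, Benjamini-Hochberg adjusted p = 0.142).

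Epileptic sgKcna1 libraries had 45.9, 54.3, 55.2, 62.0, 77.2 and 159.6 CPM of Bdnf (mean 75.7 ± 42.4, SD, n = 6). Of these, 4 lay below all controls and 1, replicate 12, lay far above them. Without it the mean was 58.9 ± 11.7 (SD, n = 5). Against epileptic sgLacZ the log2 fold change of Bdnf was 0.51 (SE 0.24; edgeR fit, adjusted p = 0.253). It was 0.15 without replicate 12, and 0.0021 in all libraries with the percent of unmapped reads as a covariate (edgeR fit, adjusted p = 0.999). Against control it was -0.01 (SE 0.25; edgeR fit, adjusted p = 0.993), and -0.38 without replicate 12 (edgeR fit, adjusted p = 0.205). The level of Bdnf in treated mice relative to either other group therefore rested on 1 library.

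The adjusted p of epileptic sgLacZ against control, in which that library takes no part, also moved without it, since 1 estimate of spread was shared by the 3 groups. Without replicate 12 the fold change of Bdnf in epileptic sgLacZ against control was -0.52 with an adjusted p of 0.0154 (edgeR), in a fit that called 27.1% of genes. With the libraries of those 2 groups alone it was -0.52 with an adjusted p of 0.0275 (edgeR; 17.9% called). With the percent of unmapped reads as a covariate it shrank to -0.19 (edgeR fit, adjusted p = 0.465). That percent ran from 11.0 to 24.1 in epileptic sgLacZ and from 19.5 to 27.7 in control libraries, and its part in the difference was not tested beyond this fit.

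Ntf3 (ENSMUSG00000049107.13, chromosome 6, 126101412 to 126166772) was lower than control on average in both epileptic groups, without passing the threshold in either. Control libraries had 12.3, 12.5, 14.1, 14.7 and 17.8 CPM of Ntf3. Epileptic sgLacZ libraries had 3.91, 5.38, 7.15, 9.55, 12.3 and 13.4 CPM, and 4 of the 6 lay below all controls. Epileptic sgKcna1 libraries had 4.01, 6.00, 8.83, 9.18, 9.21 and 9.58 CPM, and all 6 lay below every control library. Such a separation in the lower direction held for 0.573% of all genes in that contrast. Reads of Ntf3 numbered 43 to 354 per library, far above the floor.

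Mean levels of Ntf3 were 14.3 ± 2.23 CPM in control (SD, n = 5), 8.60 ± 3.78 in epileptic sgLacZ (SD, n = 6) and 7.80 ± 2.27 in epileptic sgKcna1 libraries (SD, n = 6). The log2 fold change against control was -0.73 in epileptic sgLacZ (SE 0.27; edgeR unadjusted p = 0.0153, adjusted p = 0.0758) and -0.86 in epileptic sgKcna1 mice (SE 0.28; edgeR unadjusted p = 0.00571, adjusted p = 0.609). Neither passed the threshold. Both comparisons used the same 5 control libraries, so they are not independent of each other. In the latter, Ntf3 ranked 164 of 17615 genes by p. Between the epileptic groups the difference in Ntf3 was -0.13 (SE 0.26; edgeR fit, adjusted p = 0.799), less than the spread between replicates.

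Over 9 other settings the log2 fold change of Ntf3 lay between -0.94 and -0.71 in epileptic sgLacZ and between -0.90 and -0.74 in epileptic sgKcna1 mice against control. In epileptic sgLacZ against control it passed the threshold with DESeq2 (adjusted p = 0.0432, 20.6% of genes called) and with limma's voom and sample quality weights (adjusted p = 0.00307, 41.4% called), as well as without epileptic sgKcna1 replicate 12 (edgeR fit, adjusted p = 0.0364) or without epileptic sgLacZ replicate 5 (edgeR fit, adjusted p = 0.0188), the highest of its group for Ntf3 (31.3% of genes called). In treated mice against control it passed in no setting (adjusted p between 0.0857 and 0.696). The summed level of 7 dentate granule cell markers was 249 to 354 CPM in control, 284 to 435 in epileptic sgLacZ and 180 to 328 in epileptic sgKcna1 libraries. Of the 7, Tdo2 lay below all controls in both epileptic groups, as 2.40% of all genes did in epileptic sgLacZ and 0.573% in epileptic sgKcna1. It was at 3.99 to 6.94 CPM in epileptic sgLacZ and 1.21 to 6.56 in epileptic sgKcna1 against 7.06 to 11.0 in control libraries. The ranges of the other 6 overlapped those of controls. The median log2 fold change of the 7 against control was 0.0067 in epileptic sgLacZ and -0.25 in epileptic sgKcna1 mice. The part of granule cells in the level of Ntf3 was not tested.

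**Figure D1:**
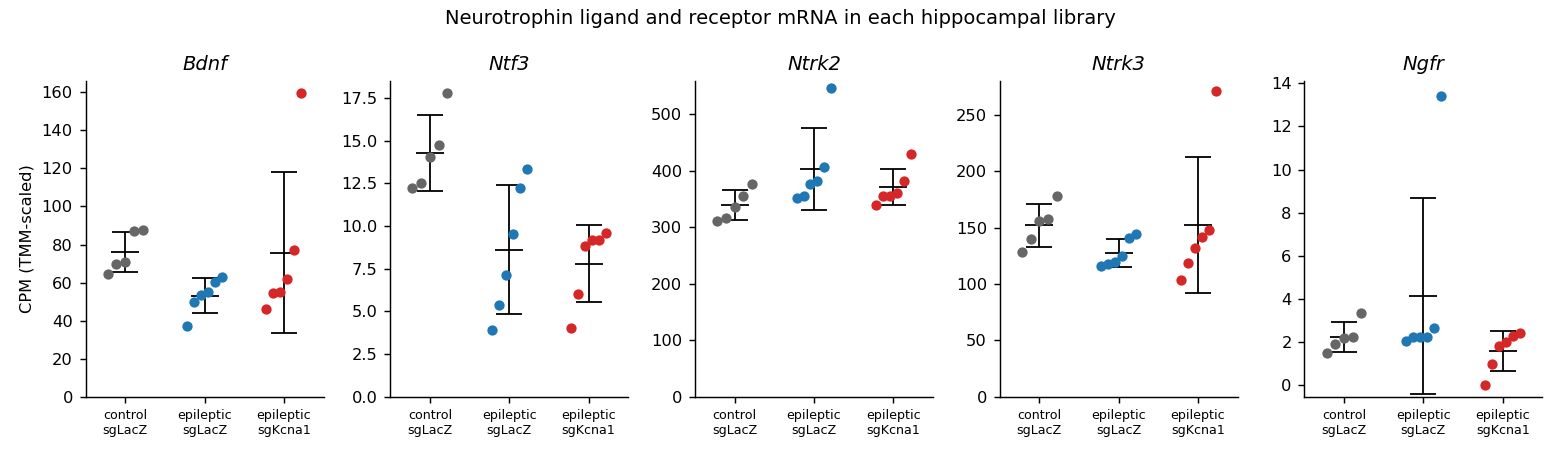
CPM (TMM-scaled, linear axis) of the 5 genes in each library (points) by group, with the mean and SD (bars; 5 control, 6 epileptic sgLacZ and 6 epileptic sgKcna1 libraries). All epileptic sgLacZ points of Bdnf and all epileptic sgKcna1 points of Ntf3 sit below the control points, and single libraries reach 159.6 CPM for Bdnf, 547 for Ntrk2, 271 for Ntrk3 and 13.4 for Ngfr.

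Ntrk2 (ENSMUSG00000055254.15, chromosome 13, 58806472 to 59133970), which encodes TrkB, had a higher mean in epileptic sgLacZ than in control libraries, without passing the threshold. Control libraries had 312, 317, 336, 355 and 376 CPM of Ntrk2. Epileptic sgLacZ libraries had 353, 356, 377, 383, 407 and 547 CPM, and 4 of the 6 lay above all controls. The log2 fold change was 0.25 (SE 0.11; edgeR unadjusted p = 0.0355, adjusted p = 0.118), and 0.14 without replicate 4, the library at 547 CPM. Epileptic sgKcna1 libraries ranged from 339 to 429 CPM with a median of 359, and differed by -0.12 from epileptic sgLacZ (SE 0.11; edgeR fit, adjusted p = 0.495) and by 0.13 from control libraries (SE 0.11; edgeR fit, adjusted p = 0.816). The summed level of 6 astrocyte markers was 1603 to 1767 CPM in control, 1794 to 2246 in epileptic sgLacZ and 1724 to 2156 in epileptic sgKcna1 libraries. Taken singly, Aldoc was at 626 to 759 CPM in control and 766 to 866 in epileptic sgLacZ libraries. The ranges of every other marker overlapped between these 2 groups. The share of all genes lying wholly higher in epileptic sgLacZ than in control libraries is not given here. The separation of Aldoc and of the sum is therefore not read as particular to astrocytes. Of the 6 markers 2 were called higher in epileptic sgLacZ against control (edgeR), beside 7.26% of all genes. In epileptic sgLacZ replicate 4, 5 of the 6 lay above all controls and Gja1, a gap junction gene, lay below them at 189.9 CPM. The part of astrocytes in the level of Ntrk2 was not tested.

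Ntrk3 (ENSMUSG00000059146.12, chromosome 7, 78179986 to 78581034), which encodes TrkC, had 129, 140, 156, 158 and 178 CPM in control libraries. Epileptic sgLacZ libraries had 116, 118, 119, 125, 141 and 145 CPM, 4 of them below all controls. The log2 fold change was -0.26 (SE 0.18; edgeR fit, adjusted p = 0.323). Voom with quality weights gave -0.29 with an adjusted p of 0.0450, while adjusting for percent unmapped gave -0.05 (edgeR fit, adjusted p = 0.877). Epileptic sgKcna1 libraries had 104, 118, 132, 142, 148 and 271 CPM, the last being replicate 12 again. Against epileptic sgLacZ the log2 fold change was 0.26 (SE 0.17; edgeR fit, adjusted p = 0.385) and was 0.012 without that library. Against control it was 0.00 (SE 0.18; edgeR fit, adjusted p = 0.999), and -0.25 without it. Ntrk2 and Ntrk3 each overlap 1 other RefSeq gene model, Gm53063 and Gm39038, but adding both strand counts changed the counts of the 5 members by at most 1.5%.

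The ratio of Ntrk2 to Ntrk3 within a library does not depend on how libraries are scaled. It was 1.98 to 2.69 in control libraries (mean log2 ratio 1.16 ± 0.20, SD, n = 5), 2.46 to 3.89 in epileptic sgLacZ (1.65 ± 0.23, SD, n = 6) and 1.41 to 3.43 in epileptic sgKcna1 libraries (1.35 ± 0.45, SD, n = 6). The ratio of Bdnf to Ntf3 was 3.99 to 6.20 in control, 4.08 to 16.0 in epileptic sgLacZ and 4.79 to 39.8 in epileptic sgKcna1 libraries. The highest of these, 39.8, was that of replicate 12, where Bdnf was highest and Ntf3 lowest of the group. The ratios were described and not tested.

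**Figure D2:**
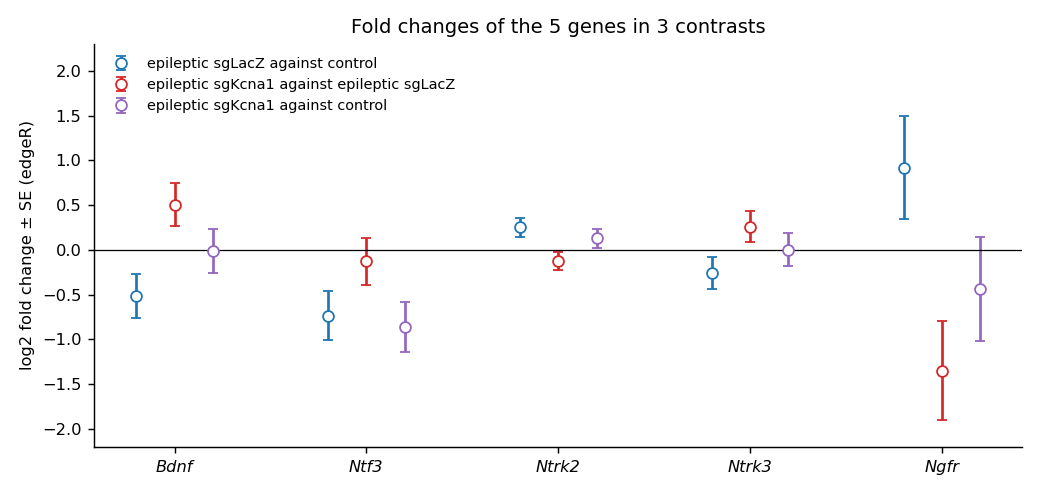
Log2 fold change with its SE (edgeR) for the 5 genes in each of 3 contrasts. Open points mark values not past an adjusted p of 0.05, as all 15 were. Ntf3 lies at -0.73 and -0.86 against control in the epileptic groups, and Ngfr has the widest bars.

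Ngfr (ENSMUSG00000000120.6, chromosome 11, 95568818 to 95587698), which encodes p75, had 0 to 394 reads per library. All libraries but epileptic sgKcna1 replicate 12 lay above the floor of 3 reads. Control libraries had 1.46, 1.91, 2.18, 2.22 and 3.33 CPM. Epileptic sgLacZ libraries had 2.03, 2.23, 2.24, 2.24, 2.63 and 13.4 CPM, so that 5 of the 6 lay within the range of controls and replicate 4 lay far above it with 394 reads. Epileptic sgKcna1 libraries had 0.99, 1.80, 2.00, 2.28 and 2.43 CPM, and replicate 12 had 0 reads, which allows up to 0.253 CPM at its depth. The log2 fold change of Ngfr was 0.92 in epileptic sgLacZ against control (SE 0.57; edgeR fit, adjusted p = 0.264) and 0.044 without replicate 4. It was -1.35 in epileptic sgKcna1 against epileptic sgLacZ (SE 0.55; edgeR unadjusted p = 0.0243, adjusted p = 0.226) and -0.48 without replicate 4. Against control it was -0.43 in treated mice (SE 0.58; edgeR fit, adjusted p = 0.872).

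The library with high Ngfr also carried reads of septal cholinergic neuron markers. Chat, which makes acetylcholine, was at 5.01 CPM in epileptic sgLacZ replicate 4, against 0 to 0.94 in the other 16 libraries. Slc5a7, the choline transporter, was at 5.86 CPM there and at most 1.52 elsewhere. Summed markers of other lists were also highest in that library. These were thalamus (170 CPM), excitatory neurons (5478), CA pyramidal cells (931), oligodendrocyte precursors (119), and pericytes and smooth muscle (105). The part of tissue next to the hippocampus in the level of Ngfr was not tested.

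Levels of different genes can be compared only per length. Dividing CPM by the summed exon length of each gene (5850 bases for Bdnf, 1427 for Ntf3, 15094 for Ntrk2, 5241 for Ntrk3 and 3446 for Ngfr, from an mm9 annotation) gave 29.0 ± 3.60 CPM per kilobase for Ntrk3, 22.5 ± 1.78 for Ntrk2, 13.0 ± 1.83 for Bdnf, 10.00 ± 1.57 for Ntf3 and 0.645 ± 0.200 for Ngfr in control libraries (SD, n = 5 each). Ngfr was lowest in all 17 libraries and the Trk receptors were above both ligands in all but 1, the epileptic sgKcna1 library with 27.3 CPM per kilobase of Bdnf. The order of neighbours varied: Ntrk3 led Ntrk2 in 11 libraries and followed it in 6, and Ntf3 exceeded Bdnf in 2. The length assigned to Ntrk2, which sums the exons of all its isoforms, sets its place beside Ntrk3.

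Across the 5 genes, 0 passed an adjusted p of 0.05 in any of the 3 contrasts with edgeR. Of all genes tested, 11.0% passed in epileptic sgLacZ against control (1940 of 17615), and 0 passed in either of the other contrasts. At an unadjusted p under 0.05 there were 3 of 5 members (Bdnf, Ntf3 and Ntrk2) in epileptic sgLacZ against control, beside 34.7% of all genes, 2 of 5 (Bdnf and Ngfr) in epileptic sgKcna1 against epileptic sgLacZ, beside 19.2%, and 1 of 5 (Ntf3) in epileptic sgKcna1 against control, beside 6.77%. In the first contrast DESeq2 called 1 member (Ntf3) and voom with quality weights called 3 (Bdnf, Ntf3 and Ntrk3). In the other contrasts these tools called 0 of 5, where DESeq2 called 0.881% and 0.222% of all genes and voom 0.0681% and 0.403%. Leaving out the 5 libraries with reads of both sexes left Bdnf at -0.49 (edgeR fit, adjusted p = 0.0695) and Ntf3 at -0.80 (edgeR fit, adjusted p = 0.102) in epileptic sgLacZ against control, in a fit that called 3.53% of genes. Ntrk3 was then at -0.16 (edgeR fit, adjusted p = 0.308), Ntrk2 at 0.26 (edgeR fit, adjusted p = 0.187) and Ngfr at 1.16 (edgeR fit, adjusted p = 0.209). The controls in that fit were all male, whereas 4 of 6 epileptic sgLacZ libraries were female, and the part of sex in these values was not tested.

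**Figure D3:**
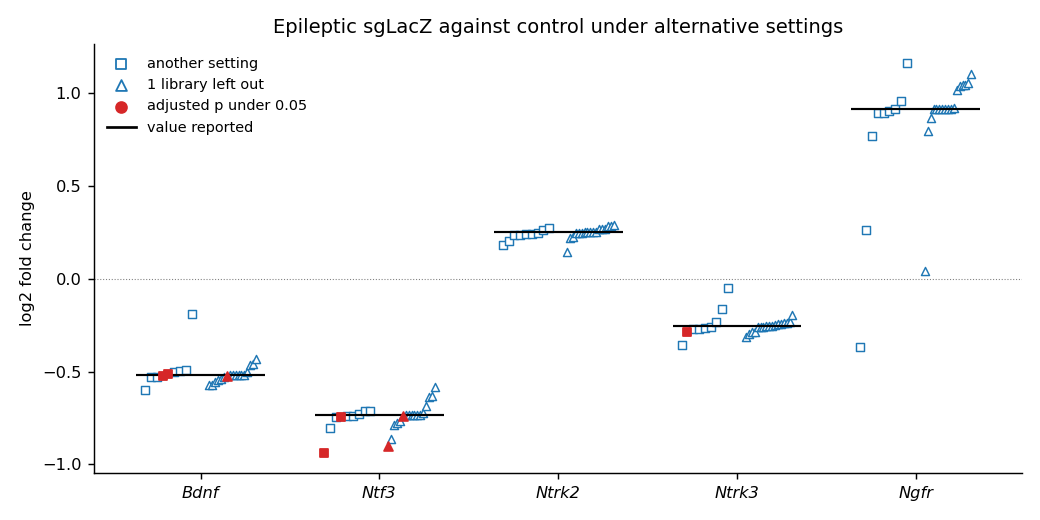
Log2 fold change of each gene in epileptic sgLacZ against control under 9 other settings (squares) and with each of 17 libraries left out (triangles), with the value reported as a line. Filled red marks are past an adjusted p of 0.05. Ntf3 stays between -0.94 and -0.58, Bdnf reaches -0.19 and Ngfr crosses 0.

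The other genes of neurotrophin signalling were taken from 7 lists of 114 genes, of which 111 were tested. In epileptic sgLacZ against control 17 rose and 4 fell (edgeR, adjusted p under 0.05; 7.26% and 3.76% of all genes did), and the median log2 fold change over the lists was 0.10, beside 0.02 over all genes. In the contrasts of sgKcna1 mice with epileptic sgLacZ and with control mice 0 of 111 were called, with 34 and 11 at an unadjusted p under 0.05, beside 19.2% and 6.77% of all genes. DESeq2 called 3 and 2 in them, beside 0.881% and 0.222%, and voom 1 and 1, beside 0.0681% and 0.403%. The calls lay close to the threshold. Leaving out control replicate 13, 14, 16 or 23 or epileptic sgLacZ replicate 4, 7 or 9 left 0 genes of the whole table past it (4557 to 5793 at an unadjusted p under 0.05), whereas leaving out epileptic sgKcna1 replicate 12 gave 32 higher and 14 lower of the 111, in a fit that called 15.1% of all genes higher and 12.1% lower. With the 5 libraries that hold reads of both sexes left out, 2 rose and 2 fell, beside 2.24% and 1.29% of all genes.

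Of the other ligand genes 0 of 2 were called. Ntf5, a further ligand of TrkB, was at 0.795 ± 0.641 CPM in control (SD, n = 5) and at 1.11 ± 0.281 CPM in epileptic sgLacZ libraries (SD, n = 6). Among 11 tested genes that process and release neurotrophins 1 rose, Pcsk7, a proprotein convertase, at 0.96 on the log2 scale (SE 0.25; edgeR fit, adjusted p = 0.0355). It overlaps a gene of the opposite strand, and with both strand counts added it was 0.87 (edgeR fit, adjusted p = 0.0233). Furin, which cuts the precursors in the secretory pathway, was at 38.8 ± 6.05 CPM (SD, n = 6) against 31.0 ± 2.73 (SD, n = 5) and did not pass (edgeR fit, adjusted p = 0.0550).

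Among 11 tested receptors and co-receptors 2 rose and 0 fell, with a median log2 fold change of 0.38. Sort1 encodes sortilin, which binds precursors of neurotrophins together with p75. It rose from 237 ± 20.8 CPM in control (SD, n = 5) to 378 ± 123 in epileptic sgLacZ libraries (SD, n = 6), giving a log2 fold change of 0.67 (SE 0.19; edgeR fit, adjusted p = 0.0391). Sorcs2, a relative of sortilin that also pairs with p75, rose from 13.9 ± 2.77 (SD, n = 5) to 32.4 ± 18.2 CPM (SD, n = 6), giving a log2 fold change of 1.23 (SE 0.30; edgeR fit, adjusted p = 0.0330).

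Of 35 tested genes of Trk signalling 10 rose and 1 fell, with a median log2 fold change of 0.20, and with both strand counts added 12 rose and 1 fell, beside 9.13% and 5.07% of all genes. The adaptor genes Shc3 and Shc2, whose products dock on activated Trk receptors, had log2 fold changes of 1.42 (SE 0.35; edgeR fit, adjusted p = 0.0333) and 0.75 (SE 0.20; edgeR fit, adjusted p = 0.0347). Rps6ka1, a kinase downstream of ERK, rose by 0.61 on the log2 scale (SE 0.14; edgeR fit, adjusted p = 0.0327). The gene that fell was Rap1a, a small GTPase, by 0.43 on the log2 scale (edgeR fit, adjusted p = 0.0477), named here after its value was seen.

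Of 17 genes of p75 signalling and cleavage 1 rose and 2 fell. Bex1 and Zfp369, whose products bind the intracellular part of p75, fell by 0.89 (SE 0.27; edgeR fit, adjusted p = 0.0452) and 0.51 (SE 0.16; edgeR fit, adjusted p = 0.0470) on the log2 scale. Rhoa, a GTPase controlled by p75, had a log2 fold change of 0.27, which was -0.05 with both strand counts added (edgeR fit, adjusted p = 0.694). Of 19 regulators of Bdnf transcription 2 rose and 0 fell. Arnt2, a partner of the activity-induced factor Npas4, rose by 0.74 on the log2 scale (SE 0.21; edgeR fit, adjusted p = 0.0381). Mef2d, an activity-regulated factor, was at 1.16, but at 0.32 with both strand counts added (edgeR fit, adjusted p = 0.0980). Of 16 genes known to be induced by BDNF in neurons 1 rose and 1 fell, and the median was -0.28. Dusp4, a phosphatase of MAP kinases, rose from 4.23 ± 0.977 CPM (SD, n = 5) to 11.8 ± 7.03 (SD, n = 6), giving a log2 fold change of 1.49 (SE 0.35; edgeR fit, adjusted p = 0.0327). Homer1, a postsynaptic scaffold, fell by 0.40 on the log2 scale (SE 0.13 in the edgeR fit, adjusted p = 0.0489). With the percent of unmapped reads as a covariate 4 of the 111 genes were called, all higher (1.43% of all genes were called higher and 0.999% lower), and of those named here Mef2d (edgeR fit, adjusted p = 0.0428) was among them.

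**Figure D4:**
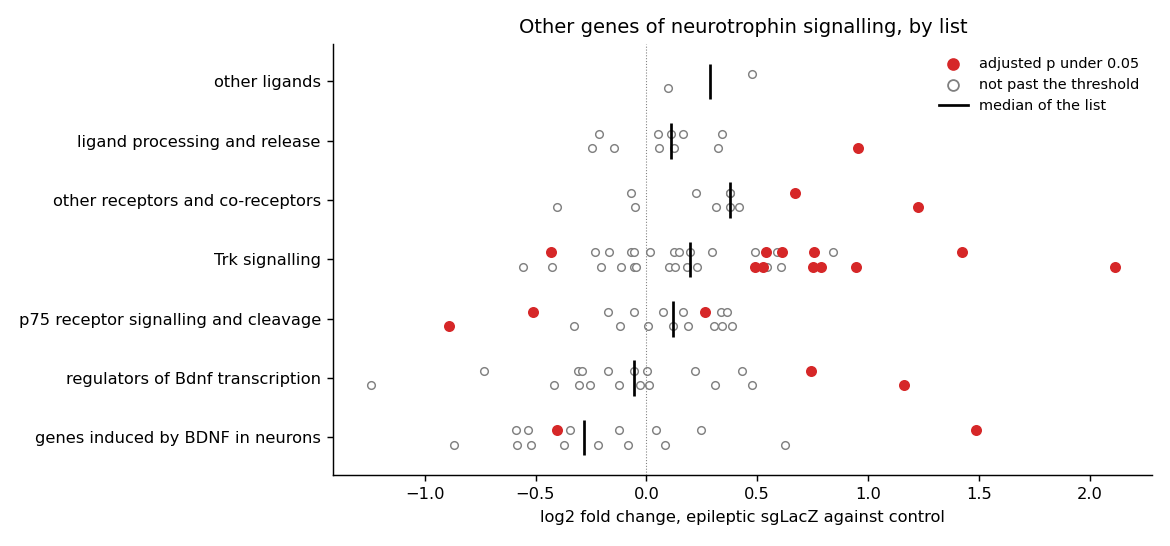
Log2 fold change of 111 other genes of neurotrophin signalling in epileptic sgLacZ against control, by list. Filled red points are past an adjusted p of 0.05 (17 higher, 4 lower), open points are not, and black lines are the list medians, from -0.28 for genes induced by BDNF to 0.38 for other receptors and co-receptors.

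The genes whose log2 CPM followed each member most closely over the 17 libraries were found among 9317 candidates, as a description only, since the same libraries, depths and groups enter every value. For Bdnf these were Smyd4, Slc4a7 and Vhl (Pearson r = 0.945, 0.933 and 0.923), and for Ntrk3 Gatad2b, Slc8a1 and Mycbp2 (r = 0.942, 0.940 and 0.935). For Ntrk2 they included Elfn1 and Apba1 (r = 0.893 and 0.886), and for Ntf3 1810049H13Rik, Pmf1 and Lor (r = 0.865, 0.846 and 0.841). For Ngfr they were Adamts2, Scn3b and Ank (r = 0.914, 0.903 and 0.902). In the 15 libraries other than epileptic sgLacZ replicate 4 and epileptic sgKcna1 replicate 12 the values for Ngfr dropped to 0.199, 0.485 and 0.387, so they rested on those libraries. For Bdnf, Ntf3, Ntrk2 and Ntrk3 they lay between 0.731 and 0.856.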

How the data were processed

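RNA-seq libraries of polyadenylated RNA from 17 mouse hippocampi (5, 6 and 6 per group) were grouped by their labels. Per the labels the authors aligned reads with STAR 2.7 to mm10, and they deposited raw counts of reads per gene, in 3 columns (either strand, forward and reverse). Such counts hold uniquely mapped reads. The annotation release, trimming and duplicate handling are not given in the sources used here. The labels name a kit without strand information and the methods a stranded kit. Forward over reverse reads came to 1.002 to 1.006, so the unstranded counts were used, which drop reads where genes of both strands overlap.

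Libraries held 11839240 to 28311328 reads in genes. The floor of 3 reads reflects counting error alone, as libraries had no molecular identifiers that would mark PCR duplicates. Pairs of libraries of a group differed by a chi-square over degrees of freedom of 8.67 to 220 (40 pairs), so none was a copy of another. The labels do not say that each library is a separate animal, so p-values measure only the spread between these samples, which may be technical. CPM were computed here.

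The deposited counts were fitted with edgeR 4.0.16 (R 4.3.3): filterByExpr by group (17615 genes), TMM scaling, 1 quasi-likelihood fit of all 17 libraries with a coefficient per group, two-sided tests, and Benjamini-Hochberg adjustment over all genes (threshold 0.05). The procedure was tested on simulated data. Alternatives were DESeq2 1.42.0 (the tool named in the study's methods), its size factors within edgeR, no filter, limma 3.58.1 voom with quality weights, both strand counts added, covariates for percent unmapped and for sex (Xist against Y-linked reads), the libraries of both groups only, and each library left out. Leaving out libraries with both Xist and Y-linked reads (minor share over 5%) was added after seeing the data.

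The members and lists were chosen with earlier results of these data known. Always named were the 5 members. For each member the 3 genes most correlated in log2 CPM (prior count 2) were named, among genes with a symbol, a mean of at least 5 CPM and strand counts summing to at most 5% above the unstranded count. Of each pathway list up to 4 called genes were named, or, with fewer than 2, those with the smallest p. Symbols were matched for 32620 of 55450 identifiers. Exon lengths came from an mm9 annotation, coordinates and promoters from RefSeq tables of GRCm38.p6. Pathway genes not tested included Mmp3 (low counts) and Hras (no symbol match). Some genes that these rules name are not reported here.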

Additional observations from a re-analysis of the deposited data

Results flagged for a closer look

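In 4 of the 15 sets formed by a gene and a group, 1 library lay apart from the rest of its group by Dixon's criterion, which chance alone meets in about 1 of 20 sets. Epileptic sgKcna1 replicate 12 was high for Bdnf, at 159.6 CPM with the next library at 77.2, and for Ntrk3, at 271 CPM with the next at 148. The same library had the fewest reads in genes, 41.5% of reads unmapped, and the highest summed levels of oligodendrocyte (10555 CPM), microglia (474) and endothelial markers (321). Epileptic sgLacZ replicate 4 was high for Ntrk2, at 547 CPM with the next library at 407, and for Ngfr, at 13.4 CPM with the next at 2.63. It had 11.0% of reads unmapped and the highest summed level of excitatory neuron markers (5478 CPM). The part of these values in the levels of the 4 genes was not tested.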

How the results depend on the processing

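The number of genes called in epileptic sgLacZ against control was 1940, and became 3634 with DESeq2, 7301 with voom and quality weights, 428 with the unmapped covariate, 516 with the sex covariate, 3045 with only both groups in the fit, 638 without the libraries holding Xist and Y-linked reads, and 0 to 5526 with 1 library left out. In epileptic sgKcna1 against epileptic sgLacZ it was 0, and became 1 without a filter, 134 with DESeq2, 12 with voom, 1 without the Xist and Y-linked libraries and 0 to 1508 with 1 library left out. In epileptic sgKcna1 against control it was 0, and became 39 with DESeq2, 71 with voom, 266 with the unmapped covariate and 0 to 14 with 1 library left out. In epileptic sgLacZ against control, Bdnf passed the threshold at a log2 fold change of -0.51 with voom and -0.52 with both groups only, Ntf3 at -0.74 with DESeq2 and -0.94 with voom, and Ntrk3 at -0.29 with voom, while Ngfr turned to -0.37 with the unmapped covariate. With 1 library left out Bdnf ran from -0.57 to -0.43 and Ntf3 from -0.90 to -0.58. In epileptic sgKcna1 against epileptic sgLacZ, Bdnf was at 0.0021 with the unmapped covariate, and Ntf3 turned to 0.20 with voom and ran from -0.28 to 0.042 with 1 library left out. Ntrk3 turned to -0.048 with the unmapped covariate and -0.11 without the Xist and Y-linked libraries. Against control in sgKcna1 mice, Ntrk3, at 0.0013, turned to -0.00021 without a filter, -0.25 with voom, -0.00094 with both strand counts added, -0.095 with the unmapped covariate, -0.0027 with the sex covariate and -0.28 without the Xist and Y-linked libraries, and ran from -0.25 to 0.091 with 1 library left out. Ngfr turned to 0.031 without the Xist and Y-linked libraries, and Bdnf ran from -0.38 to 0.10 with 1 library left out. The cause of these changes was not tested. No paired analysis was possible because the groups share no replicate numbers. In the sgKcna1 group Ngfr had the fewest reads of the members, 0 to 65 per library.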

Other observations

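Marker lists for 18 cell types and neighbouring tissues were set beside the members. In epileptic sgLacZ against control, the genes past the threshold were 2 of 6 astrocyte markers (higher), 1 of 5 excitatory neuron markers (higher), 1 of 8 CA pyramidal markers (higher) and 2 of 8 (lower), 1 of 6 microglia markers (higher) and 1 of 4 ependymal markers (lower), and 0 in the other 13 lists (edgeR, adjusted p under 0.05). Of all genes, 7.26% were called higher and 3.76% lower in epileptic sgLacZ against control. In the other contrasts 0 marker genes passed, where 0 of all 17615 genes passed. Interneuron markers summed to 1224 to 1532 CPM in control, 819 to 1380 in epileptic sgLacZ and 995 to 1464 in epileptic sgKcna1 libraries, and 0 of the 6 were called. Its members did not move alike. In control and epileptic sgLacZ libraries Sst was at 602 to 818 and 226 to 810 CPM, and Pvalb at 89.8 to 126 and 30.4 to 119. Gad1 was at 324 to 368 and 276 to 409 CPM in them, and Gad2 at 87.0 to 102 and 70.5 to 191. Choroid plexus markers ranged from 1201 to 12530 CPM in control, 4426 to 11460 in epileptic sgLacZ and 292 to 7832 in epileptic sgKcna1 libraries.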
